A study of Mus musculus with 12 samples.

Results

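The miRNAs examined are the 5 mature miRNAs whose genes lie within the Hox clusters of the mouse: miR-10a-5p, miR-10b-5p, miR-196a-5p, miR-196b-5p and miR-615-3p. They are defined by name, without a threshold on any measured value, among the 1374 mature miRNAs listed in at least 1 library, and all 5 were found. Small RNA of 18 to 30 nt was sequenced from the prefrontal cortex (PFC) of adult male C57BL/6 mice in 12 libraries, 3 for each of 4 treatment groups. SS mice received saline+saline, CS mice cocaine+saline, MS mice MET+saline and MC mice MET+cocaine, where MET stands for L-methionine, a donor of methyl groups. L-methionine was injected at 1 g/kg 2 times a day for 10 days, as the labels give it (another dose stands in 1 place of the study's text), and cocaine at 20 mg/kg during training in conditioned place preference (CPP), a test of the time spent in a compartment paired with a drug. All groups were trained and tested for CPP, and tissue was taken 2 h after the test. Each library held RNA pooled from 2 animals, so a replicate below is a pool, named by its group and number.

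The Hox genes set the position of body segments along the axis from head to tail, and the miRNA genes embedded among them are transcribed in similar domains. The miR-10 and miR-196 families are best known from hindbrain, spinal cord and trunk, where they pair with Hox transcripts among other targets, and the forebrain lies in front of the domains of Hox expression. A miRNA recognises its targets mainly through its seed, bases 2 to 8 from the 5′ end, so miRNAs that share a seed are expected to share many targets.

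The mature sequences are shown because the near identity within each pair bears on how reads could be assigned to its members. Capitals mark the seed, and sequences are given 5′ to 3′ as in RefSeq for GRCm38.p6.
mmu-miR-10a-5p: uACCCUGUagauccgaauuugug
mmu-miR-10b-5p: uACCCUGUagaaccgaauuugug
mmu-miR-196a-5p: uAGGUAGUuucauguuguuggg
mmu-miR-196b-5p: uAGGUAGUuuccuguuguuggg
mmu-miR-615-3p: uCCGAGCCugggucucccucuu
mmu-miR-100-5p: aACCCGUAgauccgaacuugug

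miR-10a-5p and miR-10b-5p have 1 seed, and over 23 nt they differ by the single substitution U12A, counted from the 5′ end with the base of miR-10a-5p first. miR-196a-5p and miR-196b-5p likewise share a seed and differ over 22 nt by the substitution A12C, with the base of miR-196a-5p first. The seed of miR-615-3p is found in none of the others shown. miR-100-5p is a relative from outside the Hox clusters with another seed, and its longest run in common with miR-10a-5p is the 11 nt guagauccgaa. Since 1 base separates the members of each pair, the division of reads within a pair is uncertain, and sums of the pairs are given beside the separate values.

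In GRCm38.p6 the mature miR-10a-5p lies at chr11:96317186-96317208 on the plus strand, between Hoxb5 and Hoxb4, and overlaps no gene of the GENCODE M21 annotation other than its own. The miR-10b-5p locus, chr2:74726074-74726096 on the plus strand, falls in introns of Hoxd3 and Hoxd4. miR-196a-5p is made from 2 loci with the same mature sequence, both on the plus strand, and reads cannot tell them apart. The locus at chr11:96265187-96265208 lies between Hoxb13 and Hoxb9. That at chr15:102973365-102973386 lies between Hoxc10 and Hoxc9, and also within an annotated intron of Hoxc5. The miR-196b-5p locus, chr6:52230129-52230150 on the minus strand, overlaps an exon of at least 1 transcript of Hoxa9. miR-615-3p lies at chr15:103014969-103014990 on the plus strand, in an intron of Hoxc5.

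In units of 1000000 counts, the libraries held 7.77 to 11.1, of which mature miRNAs took 56.0 to 67.9%, and levels are given as counts per 1000000 counts of the library (CPM). At these depths 3 counts, the one-sided 95% limit that a count of 0 allows, correspond to 0.271 to 0.386 CPM by library. No 2 libraries agreed within sampling noise, so all 12 were kept. The 5 neuronal markers were listed in every library, with a sum of 102872 to 269833 CPM. By the profiles of 124 miRNA precursor families, the 12 libraries were cut into 3 sets, a number fixed in the clustering, and the sets crossed treatment. The mir-10 and mir-196 families were left out of the profiles, and mir-615 had no precursor row. SS replicate 12 with CS replicates 8 and 9 formed set A. CS replicate 10 with MC replicates 16 and 17 formed set C, and the other 6 libraries formed set B. The sets come from the data and are not treatment groups, and no batch is named in the labels. Set A held no MS or MC library, so a difference between SS or CS and the groups given methionine cannot be told apart from the sets in full.

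Levels differed widely between the members. miR-10a-5p was the most abundant, with a mean of 29.0 CPM (SD 42.4, n = 12 libraries), place 260 of the 1374 mature miRNAs by mean level. miR-10b-5p followed at 6.68 CPM (SD 3.04), place 377. The other three were close to the limit of detection, with 0.532 CPM (SD 0.913) for miR-615-3p, 0.403 (SD 0.229) for miR-196b-5p and 0.236 (SD 0.280) for miR-196a-5p, places 660, 702 and 797. For comparison, the median mature miRNA had a mean of 0.444 CPM, so miR-10a-5p and miR-10b-5p lay well above the middle of the list and miR-196a-5p and miR-196b-5p lay below it. All 5 together took 8.50 to 171 CPM of a library. In total counts over the 12 libraries, miR-10a-5p had 3495, miR-10b-5p 778, miR-615-3p 55, miR-196b-5p 46 and miR-196a-5p 25.

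The order of the levels was tested within libraries on log2 CPM, computed with 0.5 added to each count, with exact two-sided sign-flip permutation tests adjusted by Benjamini-Hochberg over the 4 neighbouring pairs. The neighbours were taken from the order of mean levels in these same libraries, so that order was not given in advance. miR-10a-5p was above miR-10b-5p in 12 of 12 libraries, by a mean log2 of 1.48 (SD 0.99, adjusted p = 0.000977, exact test). miR-10b-5p was above miR-196b-5p in 12 of 12 libraries, by a mean log2 of 4.04 (SD 1.19, adjusted p = 0.000977, exact test). Each of these rests on an unadjusted p of 0.000488, the smallest that 12 libraries allow. miR-196b-5p was above miR-196a-5p in 8 of 12 libraries and equal in 2, by a mean log2 of 0.88 (SD 1.33), which did not pass (adjusted p = 0.0677, exact test). Without CS replicate 9 this difference was 1.13 and passed (adjusted p = 0.0156, exact test). miR-196a-5p and miR-615-3p, the lowest on this scale, differed by a mean log2 of 0.06 (SD 1.58, adjusted p = 0.926, exact test), less than the spread between libraries. The place of miR-615-3p depends on the scale, because 3 libraries hold most of its counts.

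miR-10a-5p, the best-known Hox cluster miRNA of the hindbrain and spinal cord, had 251, 104 and 118 counts in SS replicates 12, 13 and 14, or 30.5, 10.4 and 10.7 CPM. In CS replicates 8, 9 and 10 it had 24.7, 34.1 and 6.84 CPM. In MS replicates 3, 4 and 23 it had 37.4, 9.39 and 9.91 CPM. Up to here each group held 1 or 2 libraries at 24.7 CPM or more and the rest near or below 10.7. In MC replicates 16, 17 and 20 it had 5.54, 9.91 and 159 CPM, the last from 1731 counts. MC replicate 20 was thus far above every other library, and the lowest library of the series, MC replicate 16, belonged to the same group. From lowest to highest the levels spanned a ratio of 28.7, against 2.02 to 3.53 for the 5 abundant relatives miR-99a-5p, miR-99b-5p, miR-100-5p, miR-125a-5p and miR-125b-5p. Set A spanned 24.7 to 34.1 CPM and set C 5.54 to 9.91, without overlap, whereas set B ran from 9.39 to 159.

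miR-10b-5p, from the HoxD cluster, was steadier. In SS it had 5.59, 5.68 and 5.87 CPM in replicates 12, 13 and 14. In CS it had 8.14, 5.97 and 3.79 CPM in replicates 8, 9 and 10, and in MS 12.9, 8.19 and 4.14 CPM in replicates 3, 4 and 23. In MC it had 2.45, 6.02 and 11.5 CPM in replicates 16, 17 and 20. The highest libraries were MS replicate 3 and MC replicate 20, which were also the highest for miR-10a-5p, and the lowest was again MC replicate 16. That library was also the lowest in some other respects, with 8939 CPM of miR-99a-5p (21871 to 31575 elsewhere), an endothelial and vascular wall marker sum of 3787 (9742 to 14317) and a red blood cell sum of 387 (1496 to 3972). Within these sums miR-145a-5p (39.4 CPM) and miR-486a-5p (2.57) were not lowest there. miR-99b-5p, miR-100-5p and the neuron and choroid plexus sums were also lowest in MC replicate 16. Within the neuron sum, miR-124-3p (46349 CPM) and miR-138-5p (24945) were not lowest there. Nor were miR-448-3p (0.129) and miR-449a-5p (7.98) within the choroid plexus sum. miR-125a-5p (2356 CPM, 1005 to 2475 elsewhere), miR-125b-5p (2752, 1572 to 4782) and the leukocyte, liver, muscle and oligodendrocyte sums were not lowest in that library. For miR-10b-5p the range was a ratio of 5.26. The SS libraries lay within the range of each of the other groups. Over the 12 libraries the log2 levels of miR-10a-5p and miR-10b-5p had a Pearson's r of 0.738 and a Spearman's rho of 0.657, as a description of libraries that share depth, sets and possibly reads. For the other pairs of the 4 members tested, r lay between -0.090 and 0.272.

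**Figure D1:**
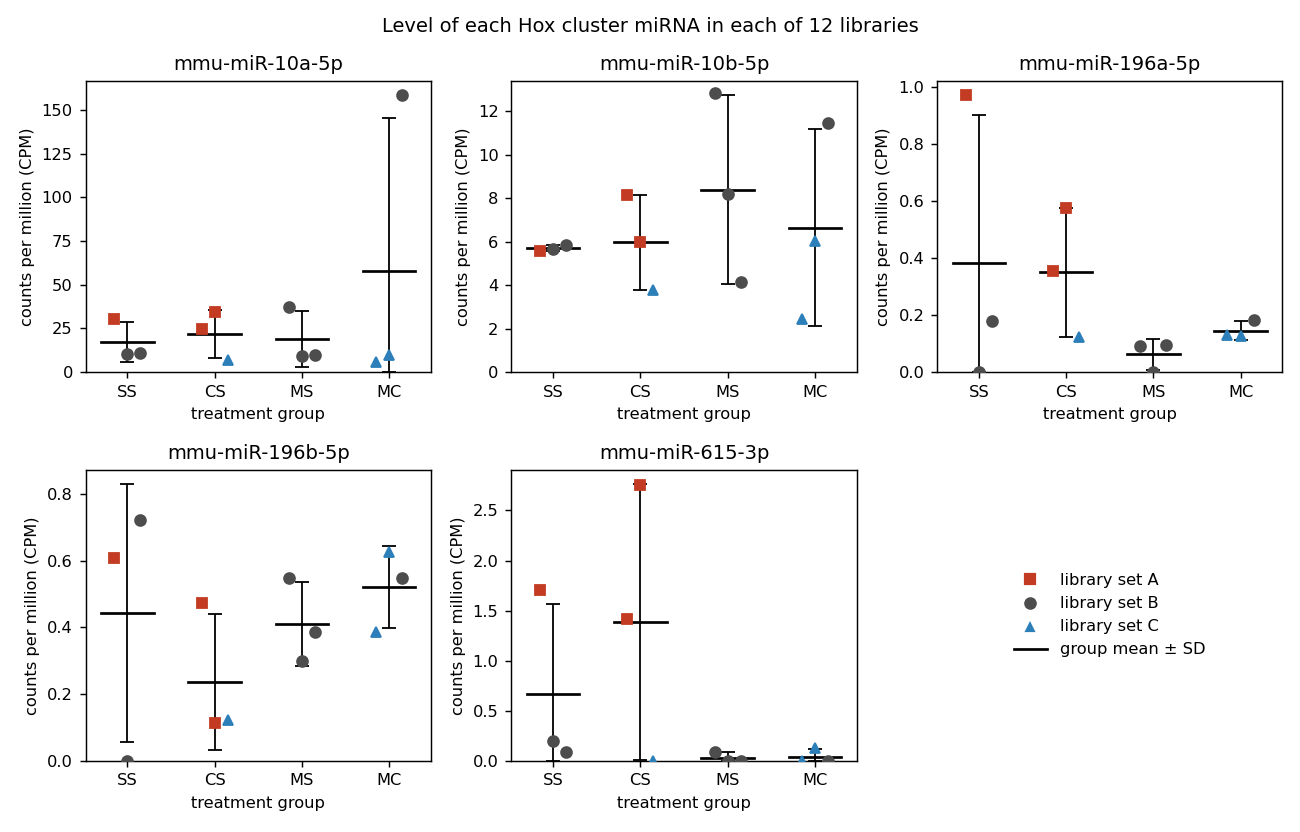
Level of each Hox cluster miRNA in CPM (vertical axes from 0, each with its own scale) in the 12 libraries by treatment group. Points are libraries, with shape and colour for the library set, bars are group means and lines the SD, cut off at 0 where they would fall below it. MC replicate 20 stands at 159 CPM of miR-10a-5p, and the 3 set A libraries alone exceed 1 CPM of miR-615-3p.

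The 2 forms were not present in a fixed proportion. miR-10a-5p made up 53.4% of their joint counts in MS replicate 4 (95% exact binomial interval 45.8 to 60.9, counting error only) and 93.3% in MC replicate 20 (92.0 to 94.4). In set A the share was 75.2 to 85.1%. In MS replicate 3, whose level of both was high, it was 74.4% (70.6 to 78.0), so the high libraries differed in the size of the excess of miR-10a-5p. The remaining libraries lay between 62.2 and 70.5%. How often reads of 1 form were assigned to the other was not measured here.

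**Figure D2:**
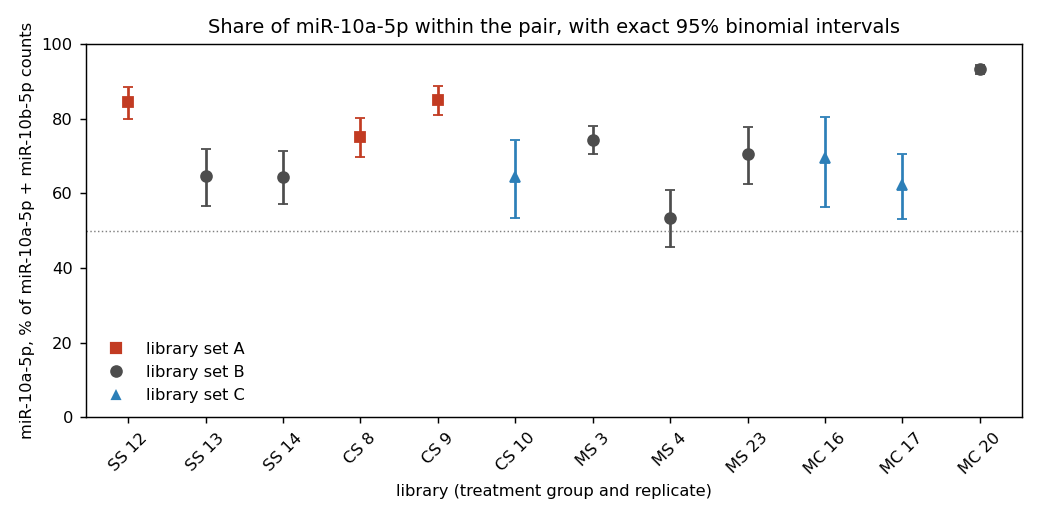
Share of miR-10a-5p in the counts of miR-10a-5p and miR-10b-5p together (percent, axis from 0 to 100) in each of the 12 libraries, with exact 95% binomial intervals and the dotted line at equal counts. The share ran from 53.4% in MS replicate 4 to 93.3% in MC replicate 20, and the set A libraries were at 75.2 to 85.1%.

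miR-196a-5p and miR-196b-5p, whose seed pairs with several Hox transcripts, were barely detected. miR-196a-5p had 8, 0 and 2 counts in SS replicates 12, 13 and 14, and 3, 5 and 1 in CS replicates 8, 9 and 10. It had 1, 0 and 1 in MS replicates 3, 4 and 23, and 1, 1 and 2 in MC replicates 16, 17 and 20. The 3 highest libraries were the 3 of set A, with 16 counts in all against 9 in the other 9 libraries, a ratio of CPM of 6.11 (95% counting interval 2.54 to 15.7). miR-196b-5p had 5, 0 and 8 counts in SS, 4, 1 and 1 in CS, 6, 3 and 4 in MS and 3, 5 and 6 in MC, in the same order of replicates. These counts were spread over the sets, with a ratio of set A to the rest of 0.955 (0.422 to 1.96). Across the 12 libraries the chi-square per degree of freedom was 1.22 for miR-196b-5p, close to the 1 of pure counting error, 3.06 for miR-196a-5p, 13.3 for miR-10b-5p, 15.1 for miR-615-3p and 616 for miR-10a-5p. PCR reads without molecular identifiers are not independent molecules, so such intervals and limits cover counting error only.

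miR-615-3p, the mature product of the intronic Hoxc5 hairpin, was found mainly in 3 libraries. It had 14 counts in SS replicate 12, 12 in CS replicate 8 and 24 in CS replicate 9, or 1.70, 1.42 and 2.76 CPM. In the other 9 libraries it had 2, 1, 0, 1, 0, 0, 0, 1 and 0 counts, in SS replicates 13 and 14, CS replicate 10, MS replicates 3, 4 and 23, and MC replicates 16, 17 and 20. The 3 high libraries are exactly set A. The sets were drawn from miRNA precursor profiles of these same libraries, so the match is no independent result. How many of all miRNAs share this pattern was not computed. Pooled, set A held 50 counts and the rest 5, a ratio of CPM of 34.4 (95% counting interval 13.8 to 110). For the other members this ratio was 6.11 for miR-196a-5p, as above, 0.955 for miR-196b-5p, 0.950 for miR-10a-5p and 0.939 for miR-10b-5p. For miR-10a-5p, MC replicate 20 gave 1731 of the 2738 counts outside set A, and without that library the ratio was 2.26 (2.05 to 2.49), a calculation added after seeing the data. No test was made between the sets, which were drawn from the same libraries.

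The opposite arms of the hairpins were nearly absent. miR-10a-3p had 11 counts in 5 libraries, so that the 5p arm made up 99.7% of the 2 arms (99.4 to 99.8, exact binomial). miR-10b-3p, miR-196a-1-3p, miR-196a-2-3p and miR-196b-3p had 0 counts in all 12 libraries. For miR-615 the 3p arm made up 98.2% (90.4 to 99.95), since miR-615-5p had 1 count, in CS replicate 9. The separate row of the mir-10 precursor family had 586 to 939 CPM in 11 libraries and 105 CPM in MC replicate 16. It is 1 row for the whole family, so it cannot show the Hox cluster members apart from their relatives. In the mir-10 family of mature miRNAs, which also takes in miR-99, miR-100 and miR-125, the 2 Hox cluster members and the 10a opposite arm made up 0.0300 to 0.375% of the counts. The precursor row of mir-196 had 1 count, in SS replicate 12.

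Of the 1422 mature and predicted miRNAs, 780 had at least 5 counts in at least 3 libraries and were tested with edgeR's quasi-likelihood F-test, with p adjusted by Benjamini-Hochberg over all 780. A call required an adjusted p no larger than 0.05 together with a log2 fold change of 1 or more in either direction. miR-10a-5p, miR-10b-5p, miR-196b-5p and miR-615-3p were tested, miR-615-3p only through its 3 set A libraries. miR-196a-5p reached 5 counts in 2 libraries and was not tested.

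Cocaine alone was compared with saline in CS against SS. miR-10a-5p averaged 21.9 ± 13.8 CPM (SD, n = 3) in CS and 17.2 ± 11.5 in SS, and miR-10b-5p 5.97 ± 2.18 and 5.71 ± 0.142. With edgeR none of the 4 tested members was called, where 0% of all 780 miRNAs were called (22 with an unadjusted p under 0.05, and 0 calls with DESeq2). The log2 fold change was 0.06 for miR-10a-5p (SE 1.04, adjusted p = 0.998), -0.23 for miR-10b-5p (SE 0.45, adjusted p = 0.994), -1.12 for miR-196b-5p (SE 0.88, adjusted p = 0.994) and 0.84 for miR-615-3p (SE 1.16, adjusted p = 0.994). The groups overlapped for every member. The interval of miR-10b-5p, the best measured, ran from -1.21 to 0.74, and that of miR-10a-5p from -2.22 to 2.34. With the library set as a covariate the estimate for miR-10a-5p was 0.83 (SE 0.83, adjusted p = 1.000).

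Methionine alone was compared with saline in MS against SS. miR-10a-5p averaged 18.9 ± 16.0 CPM (SD, n = 3) in MS and miR-10b-5p 8.39 ± 4.36. None of the 4 was called by edgeR, where 0% of the 780 were called (75 with an unadjusted p under 0.05, and 7 calls with DESeq2). The log2 fold change was -0.07 for miR-10a-5p (SE 1.04, adjusted p = 0.995), 0.31 for miR-10b-5p (SE 0.44, adjusted p = 0.885) and -0.29 for miR-196b-5p (SE 0.80, adjusted p = 0.953). miR-615-3p had 1 count in MS and 17 in SS, a ratio of CPM of 0.0550 (95% counting interval 0.00132 to 0.351), but 14 of the 17 came from SS replicate 12, and its unadjusted p of 0.0345 did not pass (adjusted p = 0.489, and 0.255 to 0.845 over the alternatives). The fitted log2 fold change, -4.06 (SE 1.69), rests on that 1 count, and it was -1.70 with the library set as a covariate.

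Methionine on a background of cocaine was compared in MC against CS. The mean of miR-10a-5p was 58.0 ± 87.1 CPM (SD, n = 3) in MC, the SD being larger than the mean, and that of miR-10b-5p 6.64 ± 4.54. None of the 4 was called by edgeR, against 0% of the 780 (58 with an unadjusted p under 0.05, and 0 calls with DESeq2). miR-10a-5p had a log2 fold change of 1.35 (SE 1.05, adjusted p = 0.647), which turned to -1.25 without MC replicate 20 (adjusted p = 0.427, and 0.418 to 0.955 over the alternatives). For miR-10b-5p it was 0.20 (SE 0.45, adjusted p = 0.869), or -0.29 without that library, and for miR-196b-5p 1.24 (SE 0.88, adjusted p = 0.625). miR-615-3p had 1 count in MC and 36 in CS, a ratio of 0.0264 (0.000651 to 0.157). All 36 were in the 2 set A libraries and CS replicate 10 had 0, so the groups overlapped. Its unadjusted p was 0.0167 and its adjusted p 0.577 by edgeR (0.323 to 0.955 over the alternatives), and the fitted log2 fold change went from -4.68 (SE 1.67) to -0.94 with the library set as a covariate.

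Cocaine on a background of methionine was compared in MC against MS. None of the 4 was called by edgeR, against 0% of the 780 (65 with an unadjusted p under 0.05, and 0 calls with DESeq2). The log2 fold change of miR-10a-5p was 1.48 (SE 1.05, adjusted p = 0.688), and -1.12 without MC replicate 20 (adjusted p = 0.511, and 0.381 to 1 over the alternatives). With the library set as a covariate it was 2.22 (SE 0.80, adjusted p = 1), in a fit where MC replicate 20 is the only MC library to share a set with MS. It was -0.34 for miR-10b-5p (SE 0.44, adjusted p = 0.837), 0.40 for miR-196b-5p (SE 0.80, adjusted p = 0.901) and 0.21 for miR-615-3p (SE 2.34, adjusted p = 0.980), the last from 1 count in each group. For miR-196a-5p the groups did not overlap, at 0.125 to 0.183 CPM in MC and 0 to 0.0962 in MS. These are 1 to 2 counts against 0 to 1 per library and a ratio of 2.35 over the groups (95% counting interval 0.337 to 26.0), within counting error. The share of all 780 miRNAs without overlap between groups was not computed.

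Whether the difference with cocaine depended on methionine was tested as an interaction, (MC - MS) - (CS - SS), for which 0% of the 780 passed an adjusted p of 0.05 in edgeR (34 with an unadjusted p under 0.05, and 0 with DESeq2). The estimates were 1.42 for miR-10a-5p (SE 1.47, adjusted p = 0.869), -0.10 for miR-10b-5p (SE 0.63, adjusted p = 0.969), 1.52 for miR-196b-5p (SE 1.19, adjusted p = 0.810) and -0.62 for miR-615-3p (SE 3.87, adjusted p = 0.973). Without MC replicate 20 that of miR-10a-5p was -1.18. Among the 4 groups together 0% passed in edgeR (59 with an unadjusted p under 0.05, and 13 calls with DESeq2). The adjusted p was 0.759 for miR-10a-5p, 0.878 for miR-10b-5p, 0.833 for miR-196b-5p and 0.593 for miR-615-3p, whose unadjusted p was 0.0203. These comparisons share groups and are not independent. Over the alternatives of this last test the smallest adjusted p of a member was 0.368, that of miR-615-3p without MC replicate 17, and DESeq2 gave no adjusted p for miR-615-3p (unadjusted 0.0188) and miR-196b-5p. Where an adjusted p was given, no member reached 0.05 in any of the 6 comparisons under the alternatives run.

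**Figure D3:**
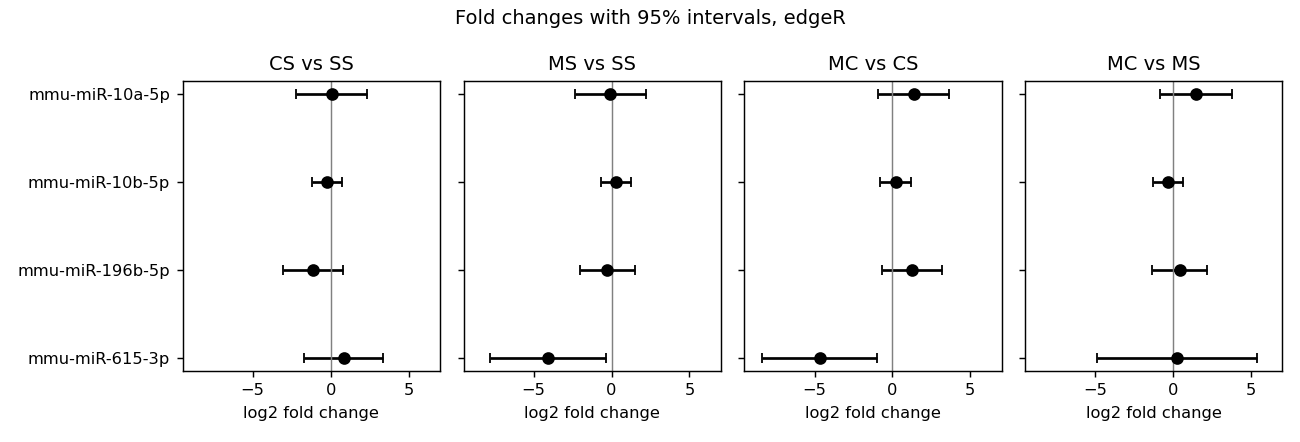
Log2 fold change (horizontal axis) of the 4 Hox cluster miRNAs tested by edgeR in 4 comparisons, with 95% intervals and a line at 0. All intervals of miR-10a-5p, miR-10b-5p and miR-196b-5p cross 0, and the 2 of miR-615-3p that do not, in the panels MS vs SS and MC vs CS, rest on 1 count in the first group and did not pass adjustment.

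The pairs were also summed, since their reads could have been divided wrongly. miR-10a-5p and miR-10b-5p together had a log2 fold change of -0.01 in CS vs SS (SE 0.90), 0.03 in MS vs SS (SE 0.90), 1.17 in MC vs CS (SE 0.91) and 1.13 in MC vs MS (SE 0.91), with adjusted p of 0.998, 0.995, 0.649 and 0.758. miR-196a-5p and miR-196b-5p together had -0.72 (SE 0.86), -0.95 (SE 0.86), 0.32 (SE 0.88) and 0.55 (SE 0.87), with adjusted p of 0.994, 0.783, 0.905 and 0.858. Neither sum was called. Without a filter on low counts miR-196a-5p alone could be tested, and its largest difference was a log2 of -2.47 in MS vs SS (SE 1.18, unadjusted p = 0.0517, adjusted p = 0.841, edgeR), from 2 counts against 10.

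The 5p arms of the relatives outside the Hox clusters, which belong to the same superfamily, were abundant in this tissue. miR-99a-5p averaged 25306 CPM, miR-100-5p 5514, miR-99b-5p 5383, miR-125b-5p 2963 and miR-125a-5p 1840, over the 12 libraries. All 5 were tested and none was called in any comparison. Their median log2 fold change was -0.19 in CS vs SS, -0.32 in MS vs SS, 0.01 in MC vs CS and -0.01 in MC vs MS, beside medians of 0.03, -0.03, 0.08 and 0.05 over all 780. The smallest adjusted p among them in a comparison of 2 groups was that of miR-99b-5p in MS vs SS, a log2 fold change of -0.54 (SE 0.17, adjusted p = 0.315, edgeR). In MC replicate 20, so high in miR-10a-5p, the mir-10 precursor row was at 781 CPM, within the range of the other libraries. As 1 row for the whole family, it cannot show a change of miR-10a alone.

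The tested miRNA whose log2 level over the 12 libraries was most like that of miR-10a-5p, among 742 compared, was miR-223-3p (Pearson's r = 0.872, n = 12 libraries), which is abundant in myeloid blood cells. It stood at 166 CPM in MC replicate 20, at 16.4 in MS replicate 3 and at 1.29 to 5.99 in the other 10 libraries. The next were miR-21a-5p (0.862) and miR-3098-3p (0.859). By Spearman's rho the order of these 3 was the reverse, with 0.671, 0.867 and 0.923. miR-21a-5p, found in many cell types including glia and leukocytes, was at 9181 CPM in MC replicate 20, at 6844 to 7941 in set A and at 338 in MC replicate 16. It was thus high in set A where miR-223-3p, at 4.50 to 5.66 CPM, was not. These correlations are across libraries that share sets and outlying replicates, and describe likeness of pattern alone.

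For miR-10b-5p the most alike were miR-199a-3p (0.906), which is abundant in mesenchymal and vascular wall cells, miR-192-5p (0.871), abundant in liver, gut and kidney, and miR-455-5p (0.861). miR-199a-3p was at 48.7 CPM in MC replicate 20 and 34.6 in MS replicate 3, and at 0.129 in MC replicate 16. The same 3 libraries stood at the ends of the range of miR-10b-5p. For miR-615-3p the most alike was miR-767 (0.885, Spearman's rho 0.448), with 10 to 23 counts in each set A library and 1 count in the other 9 together, then miR-467b-5p (0.831), at 45.1 to 63.1 CPM in set A and 5.66 to 42.3 elsewhere, and miR-654-3p (0.823). The likeness of miR-196b-5p to its nearest, miR-466o-5p (0.726), miR-1947-5p (0.685) and miR-486b-5p (0.679), was weak, and at 0 to 8 counts a library it is no finding.

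**Figure D4:**
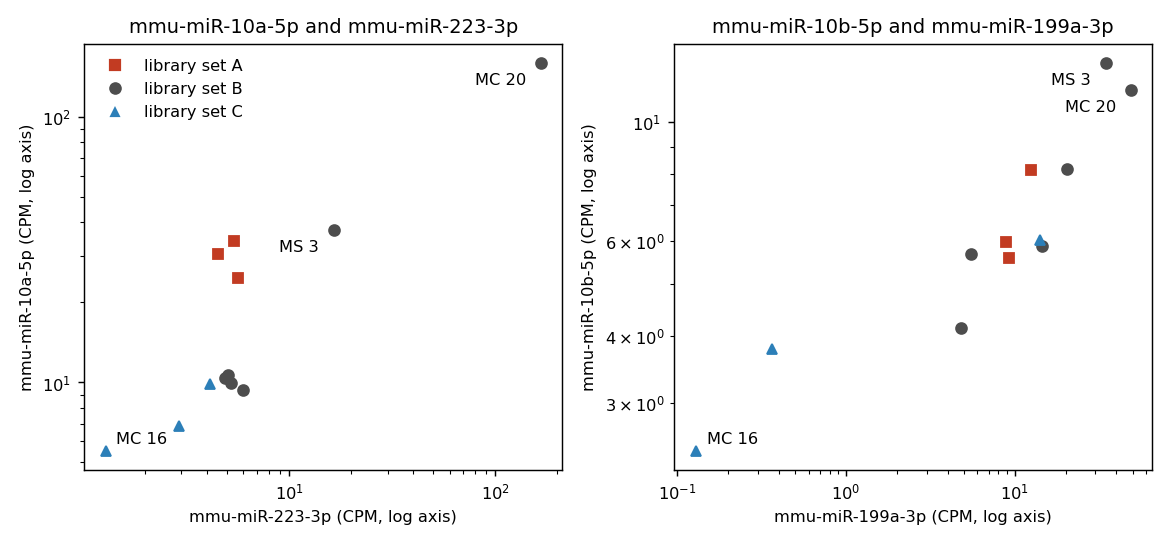
Level of miR-10a-5p against miR-223-3p (left) and of miR-10b-5p against miR-199a-3p (right), in CPM on log axes, 1 point per library with shape and colour for the library set. MC replicate 20, at 159 and 166 CPM in the left panel, lies far from the rest, MS replicate 3 comes next, and MC replicate 16 is lowest in both panels.

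Markers of other cell types were read in the same libraries, since PFC tissue holds blood, vessels and glia. Of the 3 leukocyte markers, miR-223-3p alone was out of range in MC replicate 20: miR-142a-3p was at 20.9 CPM there and at 2.32 to 25.2 elsewhere, miR-150-5p at 1896 and at 371 to 2267 elsewhere. The leukocyte sum was 2083 CPM in MC replicate 20 and 388 to 2296 in the others. Of the 3 liver markers, miR-122-5p, the main miRNA of hepatocytes, was at 2494 CPM in MS replicate 3 and at most 173 in any other library. miR-192-5p was also highest there, at 1013 CPM (34.1 to 266 elsewhere). miR-194-5p, at 293 CPM, was within the range of the other libraries (11.7 to 347). The liver sum was 3800 CPM in MS replicate 3, 680 in MC replicate 20 and 137 to 601 in the rest. MS replicate 3 is the library with the most miR-10b-5p and the second most miR-10a-5p. Without it the log2 fold change of miR-10b-5p in MS vs SS went from 0.31 to -0.20 and that of miR-10a-5p from -0.07 to -1.09.

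In MC replicate 20 the sums of the other lists were 12039 CPM for the 4 endothelial and vascular wall markers (3787 to 14317 in the others), 3057 for the 3 red blood cell markers (387 to 3972), 786 for the 3 oligodendrocyte markers (392 to 1733), 240 for the 5 choroid plexus markers (57.0 to 804) and 64.2 for the 3 muscle markers (27.0 to 87.4). All these sums were within the range of the other libraries. Among the single markers of these lists, the vascular wall marker miR-145a-5p was highest in MC replicate 20, at 67.9 CPM (22.4 to 61.8 elsewhere). All markers of every list were found in at least 1 library. In set A, where miR-615-3p was mainly found, the oligodendrocyte sum was 1470 to 1733 CPM, against 392 to 1283 in set B and 934 to 1527 in set C. Its members did not all follow: miR-219a-2-3p was highest in MC replicate 16 (856 CPM, 593 to 724 in set A). In MC replicate 17 miR-219a-5p (710) and miR-338-3p (270) lay within the range of set A. The leukocyte sum was 388 to 1730 in set A, against 798 to 2083 and 1216 to 2296. The sums of the remaining lists overlapped between sets A and B. The liver sum was 283 to 511 in set A and 137 to 213 in set C. The part of these markers in the levels of the Hox cluster miRNAs was not tested. In bulk tissue, fewer cells of a type and less RNA per cell cannot be told apart.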

How the data were processed

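Libraries were grouped by the treatment in the sample labels. According to the study's methods, the authors filtered reads for quality, adapters and length, used AASRA for mapping, set miRNA matches apart and searched what was left against piRBase (Bowtie, 1 mismatch). Bowtie and mm10 are also named in the submitters' processing notes, and neither their versions nor how AASRA divides reads between near-identical miRNAs is given in the sources used here. The deposited counts are unnormalized reads per small RNA. The TPM values deposited by the authors are those counts per 1000000 counts of the library, and match the CPM used here within 0.005.

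The quasi-likelihood F-test of edgeR 4.0.16 (R 4.3.3) was run on the counts (library size set to the total count, TMM factors of 0.675 to 1.26 from miRNAs, 1 coefficient per group over all 12 libraries, 8 residual degrees of freedom). The study's DEGseq comparison was not used, since the test here keeps replicates. Within-library orders were tested by exact sign-flip over 4096 patterns with a pseudocount of 0.5. Counting and binomial intervals are exact at 95%. The 95% intervals of edgeR fold changes are the estimate plus or minus a t quantile times the SE. This SE was derived from the fold change and its F statistic, and is approximate. The rest was done in Python 3.11.15 (scipy 1.17.1, numpy 2.4.6, pandas 2.3.3, matplotlib 3.10.9). Of these steps, the edgeR test of CS vs SS was run on simulated counts with known changes. The share of those changes that it recovered is not given here, so the run adds no support to the results above.

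Duplicate libraries were looked for by chi-square tests of miRNA counts in all pairs, with 143.9 as the lowest chi-square per degree of freedom. Library sets come from hierarchical clustering of precursor family profiles, cut at 3 sets. Libraries of the same set had a median correlation of 0.644 (21 pairs) and those of different sets -0.584 (45 pairs), by construction. Libraries of the same treatment group had 0.163 (12 pairs).

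Named miRNAs are the 5 members, their opposite arms, 5 relatives, the precursor rows, the cell type markers, and for each tested member the 3 tested mature miRNAs with the highest correlation. The members and lists were chosen with earlier results of these data known. Alternatives comprised DESeq2 1.42.0, mature miRNAs only, no filter, a filter of 10 counts in 3 libraries, TMM factors from all small RNAs or none, the 6 libraries of a comparison, library set as a covariate, no fold limit, summed pairs, other pseudocounts or denominators, and each library left out in turn. Sequences and positions were read from RefSeq and gene overlaps from GENCODE M21. The labels do not state that pools came from separate litters or cages, so p-values measure the spread between these pools.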

Additional observations from a re-analysis of the deposited data

How the results depend on the processing

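Of 407 values of the members under the alternatives, 370 kept their direction and their side of the threshold, 37 changed direction, and none passed. A summed pair was counted here under each of its tested members. Those without a fold limit repeat the main fold changes and are unchanged by construction. The number of miRNAs called was 0 in CS vs SS, MC vs CS, MC vs MS and the interaction under every alternative, while in MS vs SS it was 7 with DESeq2, 4 with the 6 libraries alone and 0 to 5 with 1 library left out (5 without MC replicate 16), and among the 4 groups 13 with DESeq2 and 0 to 3 with 1 library left out (3 without MC replicate 16). The log2 fold change of miR-10a-5p in MS vs SS was 0.0036 with TMM factors from all small RNAs, 0.14 without TMM factors, 0.10 with the library set as a covariate and 0.034 with the pair summed, and in CS vs SS it was -0.0096 with the pair summed. That of miR-10b-5p in CS vs SS was 0.063 without TMM factors and 0.14 with the library set. With the set it was 0.20 in MC vs MS and 0.065 in the interaction. The summed pair, mostly miR-10a-5p (3495 counts, against 778 of miR-10b-5p), had 1.13 in MC vs MS and 1.14 in the interaction. These count as changes of direction for miR-10b-5p but are not values of miR-10b-5p itself. With the library set, miR-196b-5p in MS vs SS was 0.0079, and miR-615-3p was -0.34 in CS vs SS and 0.76 in the interaction. Without a change of direction, it moved miR-10a-5p from 0.06 to 0.83 in CS vs SS and from 1.48 to 2.22 in MC vs MS. The order of miR-196a-5p over miR-615-3p became -0.076 with a pseudocount of 1.

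With each library left out in turn, the log2 fold change of miR-10a-5p ran from -0.54 to 0.75 in CS vs SS, -1.09 to 0.64 in MS vs SS, -1.25 to 1.94 in MC vs CS, -1.12 to 2.50 in MC vs MS and -1.18 to 2.44 in the interaction. miR-10b-5p ran from -0.20 to 0.60 in MS vs SS, -0.29 to 0.49 in MC vs CS, -0.83 to 0.17 in MC vs MS and -0.60 to 0.40 in the interaction, and miR-196b-5p from -0.86 to 0.22 in MS vs SS, -1.89 to -0.63 in CS vs SS and 0.95 to 2.00 in MC vs CS. miR-615-3p ran from -1.72 to 1.92 in MC vs MS and -2.56 to 1.08 in the interaction over 9 settings, with -5.76 to -3.59 in MS vs SS, -6.62 to -4.00 in MC vs CS and 0.21 to 1.34 in CS vs SS, since without any 1 of the set A libraries it had too few counts to be tested. Its order below miR-196a-5p ran from -0.14 to 0.28, and that of miR-196b-5p over miR-196a-5p from 0.71 to 1.13. Beyond these constructions the cause of a change was not tested. No paired analysis was possible because the groups share no replicate numbers.

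Depth limits the 3 rare members, of which 1 count is 0.0903 to 0.129 CPM, and 2 animals per pool and 3 pools per group limit all of them.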
